A study of Mus musculus with 4 samples.

Results

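The core circadian clock genes were followed in the cerebral cortex of male mice labelled Ndrg2-/- and of wild-type males. The 10 genes were the activators Arntl, Clock and Npas2, the repressors Per1, Per2, Per3, Cry1 and Cry2, and the loop and output genes Nr1d1 and Dbp. They were found as the array probes whose transcript accession maps to them, which gave 11 probes, 2 for Dbp and 1 for each of the other 9 genes. All 11 probes were well above background in both colours on all 4 arrays, so all 10 genes were tested, out of 15759 genes in all. Both genotypes were adults aged 3 months on the C57BL/6N background, kept in a 12 h light/dark cycle with free access to food and water. Each of 4 dual-colour arrays carried 1 cortical RNA sample labelled knockout, dyed with Cy5, against 1 labelled wild type, dyed with Cy3, numbered as replicates 1 to 4. The part of Ndrg2 that was deleted, the number of mice behind an RNA sample and the hour of collection are not given in the sources used here.

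The mammalian clock is a feedback loop of transcription. BMAL1 (encoded by Arntl) pairs with CLOCK or its relative NPAS2, binds E-box sequences and drives the Per and Cry genes, Nr1d1 and Dbp, and the PER and CRY proteins return to repress that pair. REV-ERBα, the product of Nr1d1, represses Arntl through ROR elements, so that Arntl transcripts are high when those of Dbp and Nr1d1 are low. Per1 and Per2 are also induced outside this loop, by neuronal activity through CREB and by glucocorticoids.

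Ratios are given as log2 of the knockout over the wild-type signal, in the labels' terms, and ± stands for the SD (n = 4 arrays). Since the dyes were never exchanged, genotype and dye cannot be told apart, and the labels do not tie samples to separate animals, so p-values speak for the spread of these samples, which may be technical. Median spot signals were 94 to 122 in green (local background 22 to 26) and 283 to 336 in red (local background 87 to 96), and having 4 arrays sets the precision. The Ndrg2 probe was higher, not lower, in the samples labelled knockout (0.32 ± 0.14, limma adjusted p 0.0173), and whether it lies in the deleted part is not given in the sources used here, so which colour is knockout is taken from the labels alone. As a check of the labelled tissue, 6 of 6 markers of cortical neurons were well above background and tested. Of 6 markers of the suprachiasmatic nucleus, the hypothalamic pacemaker, Avp, Vip and Lhx1 were tested too. Six6, Prok2 and Nms were not well above background on every array in either colour. All 5 striatal, 5 choroid plexus, 7 meningeal and 3 blood markers were also tested, so detection alone does not identify the tissue. Knockout samples 1 and 2 were the most alike. Their levels differed by a median absolute deviation of 0.0832 over all genes, against 0.13 to 0.181 for the other knockout pairs and 0.103 to 0.189 for wild-type pairs. Over 217 probes printed as replicate spots they differed by less than the spot noise (median squared difference over its variance 0.241, where noise alone gives 0.455). In the other 11 sample pairs that value was 0.58 to 2.97. The 2 samples were kept apart as labelled. Their differences correlated between separate probes of the same gene (Pearson's r 0.321 across 1657 genes, which are not independent replicates), and both Dbp probes were higher in sample 2, by 0.27 and 0.25. In the other pairs that r was 0.167 to 0.621. Such a correlation cannot tell separate animals from a technical repeat.

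Per2 rose in the samples labelled knockout and none of the other 9 clock genes passed the test. In limma, with Benjamini-Hochberg adjustment over all probes kept, 1 of 10 members passed adjusted p 0.05, higher, and none lower. Over all genes tested, 15.0% passed in either direction, 9.12% higher and 5.84% lower, so the share of members called was close to the background. At an unadjusted p under 0.05 there were 5 members, Per2, Cry1, Npas2, Per1 and Cry2, all higher, where 34.8% of all genes reached that p in either direction. The median ratio of the 10 genes was 0.15 against 0.01 over all genes. The 3 members Per2, Cry1 and Npas2 were higher on all 4 arrays, as were 24.1% of all genes, and none was lower on all 4, as were 18.6%. The criterion in the series' design text, 1.5 fold, was met on all 4 arrays by none of the members and by 0.0952% of all genes.

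**Figure D1:**
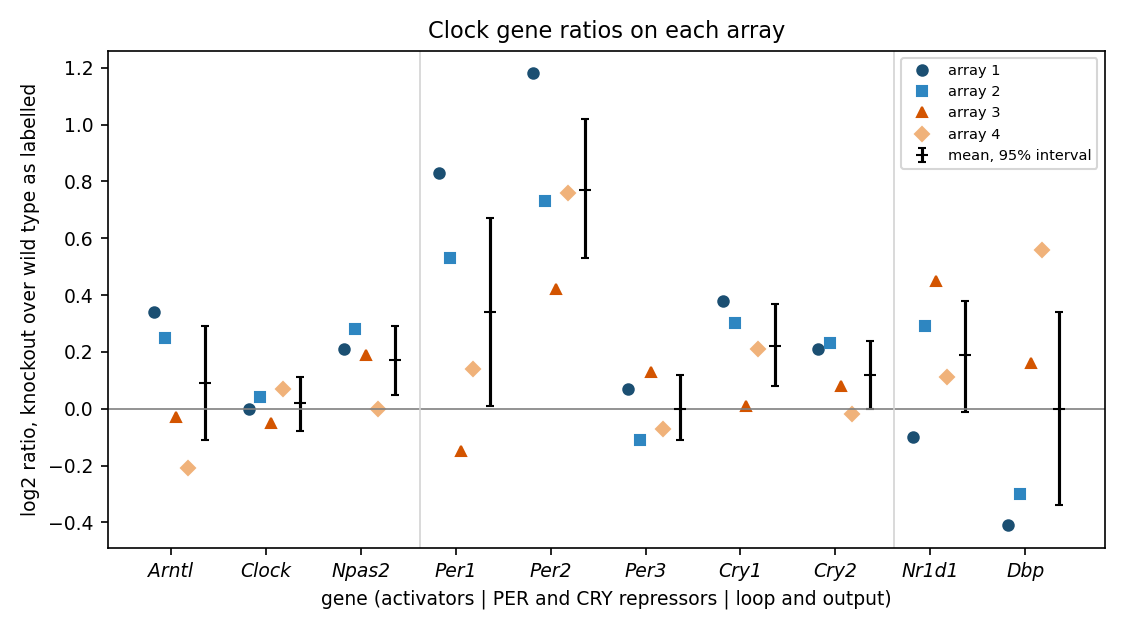
Log2 ratio of knockout over wild type (vertical axis) for the 10 clock genes (horizontal axis, ordered by role). Points are the 4 arrays, and the black bar is the mean with its 95% interval. Per2 lies above 0 on every array, from 0.42 to 1.18, while Dbp runs from -0.41 to 0.56 around a mean of 0.00.

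Among the repressors, Per2, a PER protein gene that the clock drives and that is also induced acutely, had ratios of 1.18, 0.73, 0.42 and 0.76 on arrays 1 to 4. It was higher on each array, and the 4 knockout samples (log2 levels 9.24, 9.13, 8.64 and 8.96) all lay above the 4 wild-type samples (8.06, 8.40, 8.22 and 8.19). Such a separation upwards was seen in 9.12% of all genes tested, and the reverse one, with all knockout samples below, in 6.23%. The mean was 0.77 ± 0.31, a 1.71-fold difference (95% interval of the log2 ratio 0.53 to 1.02, limma adjusted p 0.00754), and exact flipping of the signs of the 4 ratios, two-sided, gave p = 0.125, which is as small as this design permits. Array 3, at 0.42, was the array on which Per2 stayed under 1.5 fold (a log2 ratio of 0.58). Only 0.0635% of the genes tested had a larger mean difference in either direction. Per2 passed whichever replicate was left out, at 0.64 to 0.89 (limma adjusted p 0.00805 to 0.0455), and with replicates 1 and 2 averaged as 1 sample (0.71, limma adjusted p 0.0253).

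Per1, its close relative and the PER gene most readily induced by glucocorticoids and activity, had ratios of 0.83, 0.53, -0.15 and 0.14. Arrays 1 and 2 were high and array 3 was below 0, and the genotypes overlapped in level. Its mean of 0.34 ± 0.43 missed the threshold (95% interval 0.01 to 0.67, limma adjusted p 0.153). Per3, a PER gene that is dispensable for the rhythm, stood at 0.07, -0.11, 0.13 and -0.07, with a mean of 0.00 ± 0.11 (95% interval -0.11 to 0.12).

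Of the cryptochromes, the strong repressors of the BMAL1 and CLOCK pair, Cry1 had ratios of 0.38, 0.30, 0.01 and 0.21. It was above 0 on every array and its mean of 0.22 ± 0.16 lay just short of the threshold (limma adjusted p 0.0561). The call was reached without replicate 3 (0.30, limma adjusted p 0.0397). Cry2 had smaller ratios of 0.21, 0.23, 0.08 and -0.02, with a mean of 0.12 ± 0.12 (limma adjusted p 0.154).

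The activators differed little. Npas2, the CLOCK relative that is prominent in the forebrain, had ratios of 0.21, 0.28, 0.19 and 0.00 and a mean of 0.17 ± 0.12 (95% interval 0.05 to 0.29, limma adjusted p 0.0718). Without replicate 4 it passed (0.22, limma adjusted p 0.0376). Clock itself was flat, with ratios of 0.00, 0.04, -0.05 and 0.07 and a mean of 0.02 ± 0.05, and its 95% interval of -0.08 to 0.11 leaves room for only small differences. Arntl had ratios of 0.34, 0.25, -0.03 and -0.21. Its mean of 0.09 ± 0.25 (limma adjusted p 0.523) combined values above 0 on arrays 1 and 2 with values below 0 on arrays 3 and 4.

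The loop and output genes varied most in sign. Dbp, a D-box transcription factor and a direct E-box target with a large daily swing, had ratios of -0.41, -0.30, 0.16 and 0.56 and a mean of 0.00 ± 0.44 (95% interval -0.34 to 0.34). Its other probe gave -0.44, -0.26, 0.21 and 0.47, so the change of sign between arrays was seen by separate probes. The spread of Dbp over arrays was exceeded by 0.444% of the genes tested. Nr1d1, which encodes REV-ERBα, had ratios of -0.10, 0.29, 0.45 and 0.11 and a mean of 0.19 ± 0.24 (limma adjusted p 0.172).

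Activators were then set against repressors and outputs on each array, to ask whether the arms moved in opposite directions. This comparison is a description, since the genes were chosen with results known. The mean of the 3 activators was 0.18, 0.19, 0.04 and -0.04 on arrays 1 to 4, and that of the 7 repressor and output genes was 0.31, 0.24, 0.15 and 0.24. Both arms were above 0 on arrays 1, 2 and 3, and they took opposite signs on array 4 alone. The repressor and output arm minus the activator arm was 0.13, 0.05, 0.12 and 0.29 (0.14 ± 0.10, n = 4 arrays).

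Per2 carried much of that difference. Without it the difference was -0.02, -0.03, 0.08 and 0.20, below 0 on arrays 1 and 2, and its mean was 0.06. The parts of the second arm also parted from each other. The Per genes averaged 0.69, 0.39, 0.13 and 0.28 and the Cry genes 0.29, 0.27, 0.04 and 0.09, both highest on arrays 1 and 2. Nr1d1 and Dbp averaged -0.26, 0.00, 0.31 and 0.34, highest on arrays 3 and 4.

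**Figure D2:**
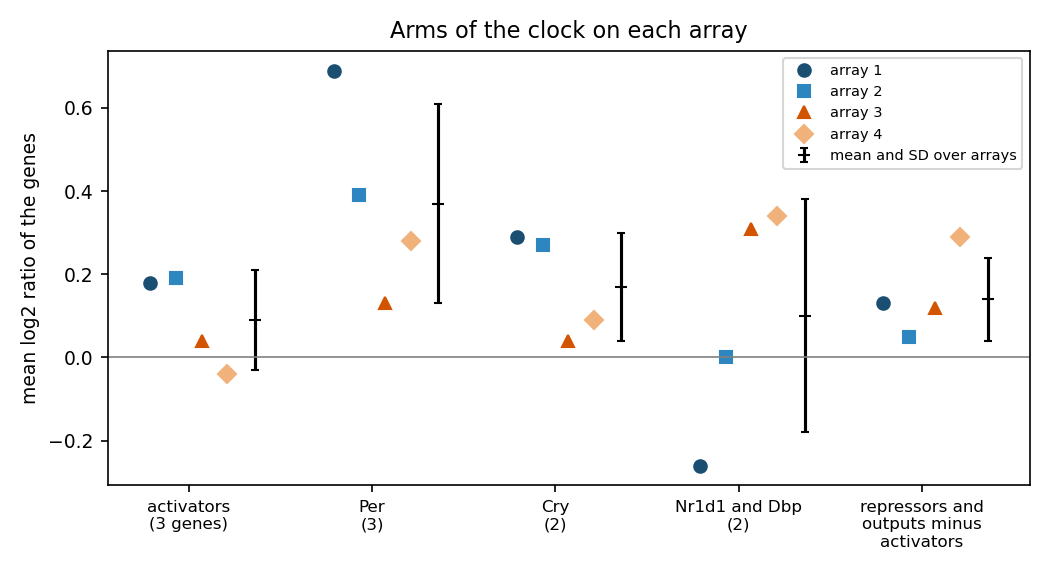
Mean log2 ratio of the genes of each arm (vertical axis) on the 4 arrays (points), and, at the right, the repressor and output arm minus the activator arm, with the mean and SD over arrays in black. The Per and Cry groups are highest on arrays 1 and 2, from 0.27 to 0.69, while the pair of Nr1d1 and Dbp is highest on arrays 3 and 4, at 0.31 and 0.34.

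Levels in the single samples were read to see in which samples, knockout in red or wild type in green, these swings lay. They are log2 intensities of each colour after quantile normalization of brightness between arrays, and are less exact than the ratios because spots differ between arrays. Genotype and colour cannot be told apart in these levels either. For Arntl the wild-type samples lay at 11.27, 11.25, 11.24 and 11.25, and 99.6% of the genes tested varied more among them. The knockout samples lay at 11.61, 11.51, 11.21 and 11.04, a spread exceeded by 2.29% of genes, with samples 1 and 2 above all wild-type samples and samples 3 and 4 below them.

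For Dbp the knockout samples took the reverse order, at 13.34, 13.61, 13.87 and 14.14, lowest in sample 1 and highest in sample 4. The wild-type samples were closer together, at 13.75, 13.91, 13.71 and 13.58. Among the knockout samples the spread of Dbp was exceeded by 0.876% of genes and that of Nr1d1 by 1.19%, with Nr1d1 lowest in sample 1 (8.92) and at 9.33, 9.65 and 9.53 in the others. Per1 differed from these, as its wider spread lay among the wild-type samples, at 12.06, 12.27, 12.76 and 12.98, against 12.89, 12.80, 12.61 and 13.12 in the knockout samples.

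**Figure D3:**
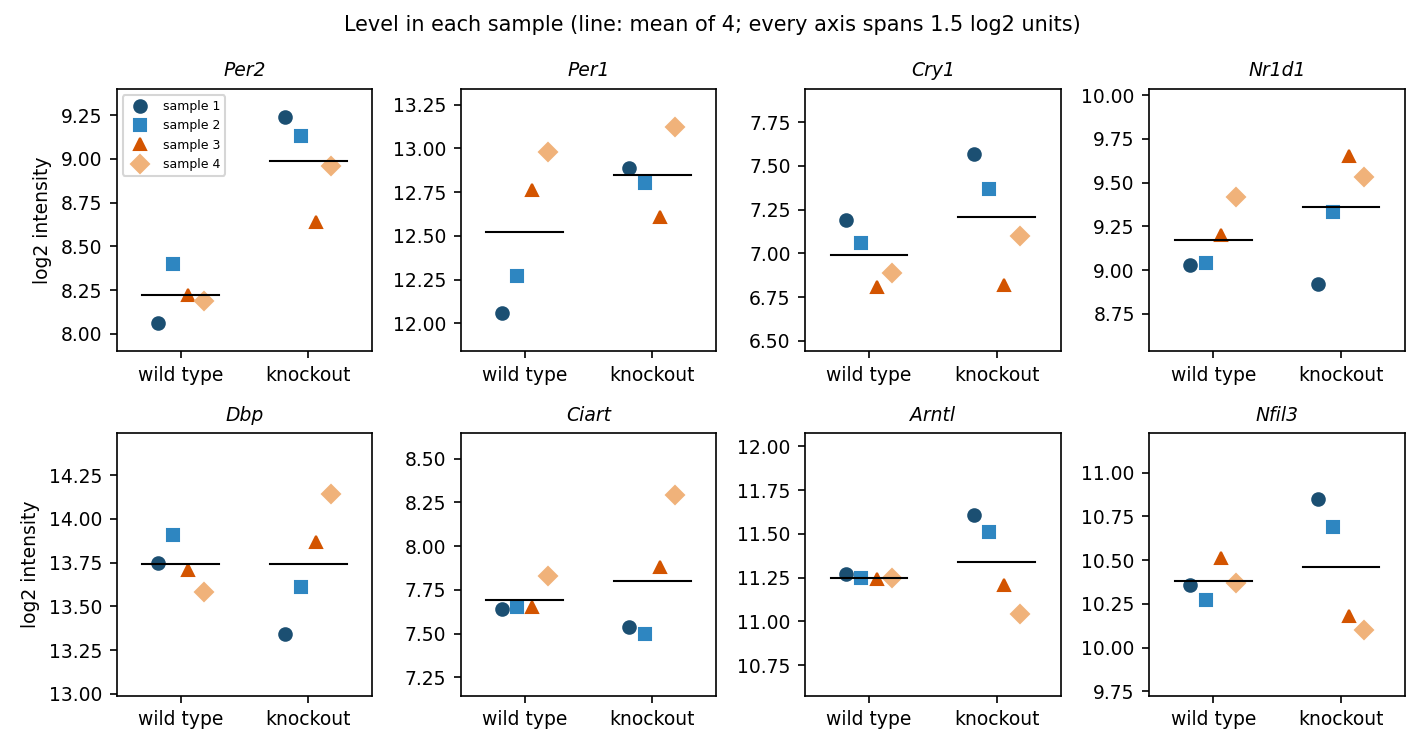
Log2 intensity (vertical axis, 1.5 log2 units in every panel) of 8 clock genes in the 4 wild-type and the 4 knockout samples, where a symbol marks the replicate number and a line the mean. Knockout samples 1 and 2 are the higher ones for Arntl and Nfil3 and the lower ones for Dbp and Ciart, while the wild-type samples of Arntl lie within 0.03 of each other.

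Opposite signs on arrays 1 and 2 and on arrays 3 and 4 were also seen outside the 10 genes, and the genes named here were chosen after their values were seen. Of all genes tested, 5.13% were above 0 on arrays 1 and 2 and below 0 on arrays 3 and 4, as Arntl was, and 5.22% the reverse, as Dbp was. Across all genes arrays 1 and 2 (Pearson's r 0.688) and arrays 3 and 4 (0.547) were more alike than the other pairs (0.356 to 0.461). Among the 27 other clock genes, Nfil3 took the signs of Arntl, and Ciart, Usp2 and Gsk3b, a kinase gene, those of Dbp. Together they were 14.8% of the 27, against 10.3% of all genes with either pattern. Gsk3b was only at 0.02 on arrays 3 and 4, and its other probes did not show the pattern. Nfil3, a D-box repressor that ROR elements control like Arntl, had ratios of 0.49, 0.42, -0.34 and -0.27. Ciart, an E-box target that encodes a repressor of the BMAL1 and CLOCK pair, stood at -0.10, -0.15, 0.23 and 0.46, and Usp2, a clock-driven deubiquitinase gene, at -0.45, -0.32, 0.18 and 0.15. In mean ratio none of the 3 passed the test (limma adjusted p 0.753, 0.480 and 0.522).

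Promoter sequences are shown for genes of both patterns and for Per1 and Cry1, because the loops are known to act through different elements. They are RefSeq windows of build GRCm38.p6 from 250 bases before to 50 after a transcript's start, which were found for 9 of the 10 members, all but Per2. Capitals mark any match, on either strand, to the E-box CACGTG, the variant E-box CACGTT, the D-box TTATGTAA, the cAMP element TGACGTCA and the ROR half-site AGGTCA. For Per1 the first and for Arntl the second of 2 listed starts is shown, chosen because it held a match, and the other start of each held none.
Per1 (chr11:69098699-69098998, plus strand): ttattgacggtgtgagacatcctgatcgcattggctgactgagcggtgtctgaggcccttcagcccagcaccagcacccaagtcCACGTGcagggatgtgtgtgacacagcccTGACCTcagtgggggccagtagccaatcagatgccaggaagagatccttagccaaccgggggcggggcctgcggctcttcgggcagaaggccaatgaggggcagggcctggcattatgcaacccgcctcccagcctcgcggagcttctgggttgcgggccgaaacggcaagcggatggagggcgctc
Cry1 (chr10:85185005-85185304, minus strand): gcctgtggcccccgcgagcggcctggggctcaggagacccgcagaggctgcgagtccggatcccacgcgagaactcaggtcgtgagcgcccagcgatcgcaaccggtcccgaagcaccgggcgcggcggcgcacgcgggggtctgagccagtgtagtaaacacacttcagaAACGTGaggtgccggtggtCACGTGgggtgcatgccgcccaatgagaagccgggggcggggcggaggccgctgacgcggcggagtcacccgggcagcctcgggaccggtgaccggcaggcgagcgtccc
Ciart (chr3:95882179-95882478, minus strand): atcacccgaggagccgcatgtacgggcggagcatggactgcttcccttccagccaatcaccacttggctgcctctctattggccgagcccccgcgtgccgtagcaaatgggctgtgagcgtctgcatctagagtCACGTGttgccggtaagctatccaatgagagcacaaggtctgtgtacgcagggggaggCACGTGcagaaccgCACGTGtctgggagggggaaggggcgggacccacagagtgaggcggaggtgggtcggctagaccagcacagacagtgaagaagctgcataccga
Arntl (chr7:113207261-113207560, plus strand): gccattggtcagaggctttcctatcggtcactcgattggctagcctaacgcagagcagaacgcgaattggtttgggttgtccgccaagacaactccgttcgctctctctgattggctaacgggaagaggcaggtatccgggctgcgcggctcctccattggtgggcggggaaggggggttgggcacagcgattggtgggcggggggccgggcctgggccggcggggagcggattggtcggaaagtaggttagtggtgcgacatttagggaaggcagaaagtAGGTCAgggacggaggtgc
Nfil3 (chr13:52980990-52981289, minus strand): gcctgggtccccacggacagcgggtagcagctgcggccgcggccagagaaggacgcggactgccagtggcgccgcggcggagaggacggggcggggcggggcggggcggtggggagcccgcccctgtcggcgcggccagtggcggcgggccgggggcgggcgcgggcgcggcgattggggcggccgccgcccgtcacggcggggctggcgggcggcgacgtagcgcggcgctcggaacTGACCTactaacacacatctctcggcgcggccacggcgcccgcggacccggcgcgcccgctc

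Per1 held an E-box 166 bases before its start and a ROR half-site on the reverse strand 137 bases before it. Cry1 held an E-box 60 bases before its start and a variant E-box 79 bases before it. Ciart held 3 E-boxes. Arntl and Nfil3 each held a ROR half-site, in Arntl 31 bases after the start and in Nfil3 on the reverse strand 12 bases before it. Among all 32851 windows of the same length, 7.15% held the E-box, 4.68% the variant E-box, 0.938% the D-box, 1.79% the cAMP element and 16.3% the ROR half-site. Elsewhere among the members, the Per3 window held 2 D-boxes, and Cry2 and Nr1d1 held 1 variant E-box each. Of 3 Clock windows, 1 held a ROR half-site on the reverse strand, 119 bases before the start. Of the other clock genes, Nr1d2, Nampt and Ppp1cb also held a ROR half-site in a listed window, and Tef, Bhlhe41 and Cipc an E-box. Rorb held a variant E-box, Hlf a cAMP element and Timeless a D-box. None of these genes had the signs of Arntl or of Dbp, and Nr1d2 was at 0.04, 0.12, 0.31 and 0.68. The Dbp, Usp2 and Gsk3b windows held no match to these letters, and none of the windows shown held the D-box or the cAMP element.

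Among 27 other clock genes tested, each by its brightest probe, 6 rose, 21 did not pass and none fell. In limma 9 of the 27 had an unadjusted p under 0.05, close to the 34.8% of all genes. Their median ratio was 0.06, against 0.01 over all genes, of which 15.0% passed. Csnk1d, which encodes casein kinase 1 delta that phosphorylates PER proteins and sets the period, stood at 0.55, 0.39, 0.31 and 0.28 (0.39 ± 0.12, limma adjusted p 0.00728). It passed whichever replicate was left out, at 0.33 to 0.42, but its other probe, named by another transcript, averaged -0.02.

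The other 5 genes that rose each lost the call on leaving out at least 3 of the 4 replicates singly. Among kinases and ligases, Btrc, a ubiquitin ligase gene that marks phosphorylated PER for decay, averaged 0.23 ± 0.09 (limma adjusted p 0.0221), yet its other probe was lower at -0.41 (limma adjusted p 0.0154). Csnk1a1, another casein kinase 1 gene, averaged 0.16 ± 0.07 (limma adjusted p 0.0481), with its other probe at -0.07. The remaining 8 of the 11 kinase, ligase and phosphatase genes did not pass with their brightest probes. For Csnk2a1 that probe averaged 0.06, but another of its probes was lower (-0.19, limma adjusted p 0.0344).

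Of 7 loop and D-box factors, Rorb, a nuclear receptor gene of the ROR family, averaged 0.25 ± 0.13 (limma adjusted p 0.0288) with its other probe at 0.03. Hlf, a D-box activator related to Dbp, averaged 0.18 ± 0.06 (limma adjusted p 0.0344) and had no other probe tested. Among 3 output genes, Nampt, which encodes the rate-limiting enzyme of NAD salvage, averaged 0.25 ± 0.14 (limma adjusted p 0.0302), with array 3 apart at 0.05. Csnk1a1, Rorb and Hlf lost the call without any 1 of the replicates, Btrc without replicates 1, 2 or 3 (limma adjusted p 0.0778 to 0.0887), and Nampt without replicates 1, 2 or 4 (0.0754 to 0.119). None of the 6 E-box repressors and related genes passed. The highest was Bhlhe40, an E-box repressor that activity also induces, with 0.49, 0.32, -0.08 and 0.29 (0.26 ± 0.24, limma adjusted p 0.0856), followed by Ciart.

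**Figure D4:**
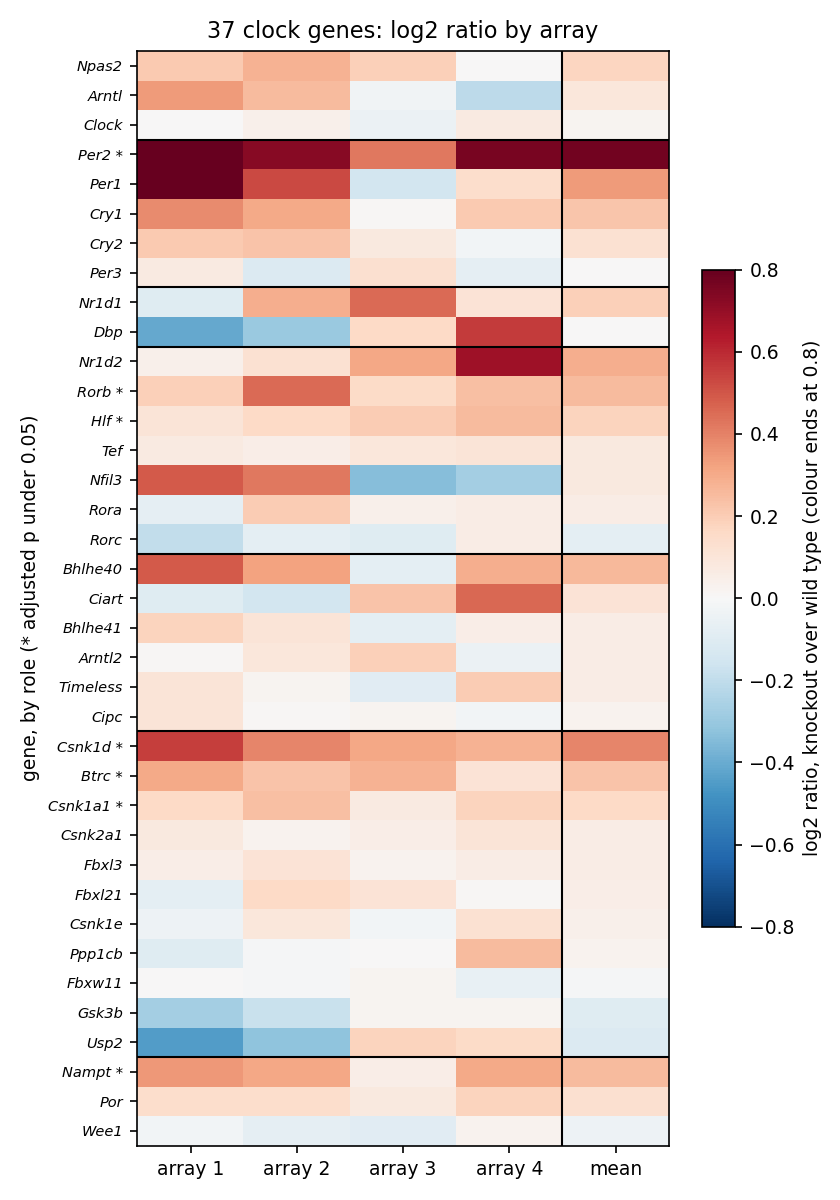
Log2 ratio of knockout over wild type (colour, ending at 0.8 in either direction) of the 37 clock genes tested, in rows by role, on the 4 arrays and as the mean. Asterisks mark the 7 genes with a limma adjusted p under 0.05. Per2 is dark red on arrays 1, 2 and 4, and Dbp, Ciart and Usp2 turn from blue on arrays 1 and 2 to red on arrays 3 and 4.

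Genes that respond to activity, glucocorticoids or temperature were read on the same arrays, because Per1 and Per2 answer to such cues as well. Immediate early genes, the fast transcriptional response of neurons to firing, had list medians of 0.70, 0.56, -0.18 and 0.13 on arrays 1 to 4 over 15 of the 16 genes listed, beside 0.83, 0.53, -0.15 and 0.14 for Per1. Of the 15, 13 had a mean above 0. Single genes departed from the medians, as Npas4 did at 0.19, 0.11, 0.46 and 0.78. Among the knockout samples Per1 and Npas4 had their highest levels in sample 4 (13.12 and 12.15), whereas Egr1 was highest in samples 1 and 2 (14.62 and 14.61). Of the 15 immediate early genes, 2 rose and 13 did not pass, where 9.12% of all genes rose. Egr1, 1 of the 2 and a zinc finger factor gene of that class, stood at 1.14, 0.87, 0.22 and 0.58 (0.70 ± 0.39, limma adjusted p 0.0188). The other was Ier5 at 0.39 ± 0.29 (limma adjusted p 0.0420), with its other probe at 0.22 (limma adjusted p 0.425). Crem did not pass with its brightest probe (0.12, limma adjusted p 0.179), but another of its probes did (0.25, limma adjusted p 0.0387). Egr1 lost the call without replicate 2 (0.64, limma adjusted p 0.0855) and lay at the threshold without replicate 1 (0.55, limma adjusted p 0.050). It also lost it with normexp offset 0, processed signals, the authors' value table or replicates 1 and 2 averaged (limma adjusted p 0.0517, 0.0548, 0.0548 and 0.0648). Ier5 lost it without replicates 1, 2 or 3 (limma adjusted p 0.0566 to 0.155). The summed log2 level of the list, which adds unlogged signals and so rests mostly on its brightest genes, was 15.66 to 16.64 in the knockout samples. In the wild-type samples it was 15.18 to 15.97.

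Glucocorticoid-responsive genes had list medians of 0.03, -0.02, 0.25 and 0.22 over 10 genes, highest on the arrays on which Per1 was lowest. The metallothionein gene Mt2 (0.35 ± 0.27, limma adjusted p 0.0468) and the NF-κB inhibitor gene Nfkbia (0.18 ± 0.07, limma adjusted p 0.0333) rose, and 8 did not pass. Both lost the call without any 1 of the replicates (limma adjusted p 0.0537 to 0.143 and 0.0650 to 0.115). Over all genes 9.12% passed higher, for comparison with this list and the temperature list below. The summed log2 level of the list was 16.26 to 16.51 in the knockout and 16.18 to 16.23 in the wild-type samples. Mt2, its brightest gene, alone stood at 15.24 to 15.64 and 14.99 to 15.19. Of 6 temperature-responsive genes tested out of 7 listed, the constitutive chaperone gene Hspa8 rose (0.31 ± 0.17, limma adjusted p 0.0261) and 5 did not pass. The median ratio of the 6 was -0.04, and 3 were above 0. Their summed log2 level was 17.40 to 17.65 in the knockout and 17.25 to 17.32 in the wild-type samples. It rested mostly on Hspa8, which alone stood at 17.02 to 17.27 and 16.76 to 16.87. Hspa8 lost the call without replicates 1 or 2 (limma adjusted p 0.0841 and 0.108), and the median of its probes was 0.04. The part of these lists in the Per1 and Per2 ratios was not tested.

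**Figure D5:**
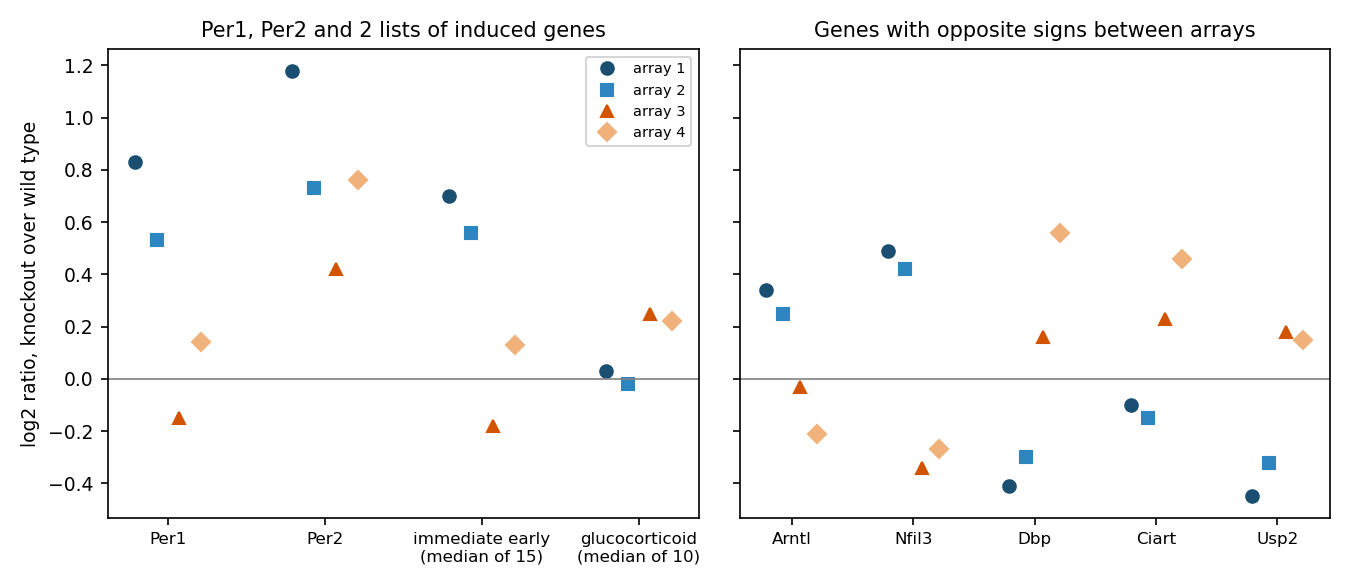
Log2 ratio of knockout over wild type (vertical axis) on the 4 arrays (points) for Per1, Per2 and the medians of 2 lists (left), and for 5 clock genes with opposite signs between arrays (right). Per1 and the median of the immediate early list run side by side, from -0.15 to 0.83 and from -0.18 to 0.70. Single genes of that list differed. Arntl and Nfil3 mirror Dbp, Ciart and Usp2. These 5 genes were chosen for such signs, and 10.3% of all genes had either pattern.

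Markers of another tissue rose too. Of 7 meningeal markers, 6 rose and 1 did not pass in limma, where 9.12% of all genes rose. Their list medians were 0.61, 0.43, 0.25 and 0.69 on arrays 1 to 4. The medians were lowest on array 3 like Per2, but highest on array 4, whereas Per2 was highest on array 1. Singly, Lum was lowest on array 2 (0.43) and Mgp on array 1 (0.28), and the others were lowest on array 3. Without replicate 1, and likewise without replicate 2, 3 passed. The number was also 3 with processed signals, the authors' value table or replicates 1 and 2 averaged, and 1 without pairing the colours of an array. All 7 were well above background, and their summed log2 level was 13.32 to 14.09 in the knockout and 12.82 to 13.74 in the wild-type samples. Their part in the Per2 result was not tested, and in RNA of whole cortex more cells of a type and more RNA per cell cannot be told apart.

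The 5 genes whose ratios over the 4 arrays lay nearest to those of Per2, by Euclidean distance, were Hspb1, Egr1, Mbp, Rgcc and Thbs4. Hspb1, a small heat shock protein gene, was at 1.11, 0.58, 0.25 and 0.62, a distance of 0.280. Egr1 followed at 0.308 and the myelin gene Mbp at 0.354. No other member of the 10 was among them.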

How the data were processed

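Cortical RNA from 4 pairs of samples was measured on 4 dual-colour arrays, all in 1 scan per the file headers. Per the file headers, the authors read the scans with Feature Extraction 11.0.1.1 (10.7.3.1 per the submitters' processing notes). The deposited intensity values are median pixel signals of spot and local background, and processed signals after background subtraction and dye normalization. The deposited log10 ratio is that of red over green processed signal. The authors' deposited log2 table matched this ratio within 0.001 for 86.0% to 87.7% of single-spot probes, with column medians of 0.04, 0.03, -0.04 and -0.04, so its direction and log base are known and the source of the other values is not.

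Median signals were corrected with normexp (offset 50) and loess (span 0.3) in limma 3.58.1 and R 4.3.3, with 1377 control spots at weight 0 and 802 outlier spots left out. Of 39429 probes, 27664 passed the scanner's test of being well above background, on every array, in 1 colour or both. Of these, 20764 had a symbol by accession (RefSeq, GRCm38.p6), and the brightest probe stood for each of 15759 genes. An intercept-only lmFit and eBayes model was fitted, with Benjamini-Hochberg adjustment over kept probes and a threshold of 0.05. The within-array ratio is the pairing of replicate numbers. The code was tested on simulated data.

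The members and lists were chosen with earlier results of these data known. The naming rule takes all members, other clock genes that were called (otherwise the 2 largest of a list), up to 4 called genes of each cue list and the 5 genes nearest to Per2; values of Nfil3 and Usp2 were added after they were seen. Marker lists also covered choroid plexus (1 of 5 higher), blood (0 of 3), striatum (1 of 5 lower), astrocytes (0 of 4), cortical neurons (2 of 6 higher) and the suprachiasmatic nucleus (0 of 3 tested) in limma. Over all genes 9.12% passed higher and 5.84% lower. Of the lists with 0, astrocytes had 3 genes, blood 0 and the suprachiasmatic nucleus 1 at an unadjusted p under 0.05. The astrocyte gene Gfap missed the call with its brightest probe (0.35, limma adjusted p 0.0687). Its other probes passed, at 0.62 and 0.18 (limma adjusted p 0.00693 and 0.0364). Alternatives changed the background correction, dye normalization, scaling, filter, probe choice and pairing, and left out each replicate; centring by brightness over 201 probes and averaging replicates 1 and 2 were added after the data were seen.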

Additional observations from a re-analysis of the deposited data

Results flagged for a closer look

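Among 91 sets of 4 values examined for a value far from the other 3, a check that flags about 1 in 20 sets by chance, 2 stood out. The level of Clock in wild-type sample 1 was 9.88, against 9.79, 9.78 and 9.79 in the other wild-type samples. The Nampt ratio on array 3 was 0.05, against 0.30 to 0.35 on the other arrays.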

How the results depend on the processing

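Per2 kept its direction and its call in all 17 alternatives (0.64 to 0.97, limma adjusted p 1.19e-05 to 0.0455), as did Csnk1d (0.18 to 0.86, limma adjusted p 1.26e-06 to 0.0474), and the difference between the arms stayed above 0 at 0.06 to 0.20. Median centring without loess, which moved the median of all genes to 0.28, called 9 members, 24 other clock genes and 12971 genes, 82.1% of them higher against 61.0%, and put the activators at 0.32 and the repressors and outputs at 0.45. The number of members called was 2 without background subtraction (Cry1 added), 1 to 2 with a replicate left out and 0 at 1.5 fold on all arrays, which 15 genes met. Other clock genes called numbered 1 with offset 0, 2 with processed signals, 2 with the authors' table, 3 with the median of probes, 1 with replicates 1 and 2 averaged and 1 to 3 with a replicate left out. Genes called numbered 1155 with offset 0, 1339 with processed signals, 1329 with the authors' table, 748 with replicates 1 and 2 averaged and 452 to 1544 with a replicate left out. Without the replicate block, that is without pairing the colours of an array, Per2 was at 0.77 (limma adjusted p 0.00737), 676 genes and 1 other clock gene were called, and the arms differed by 0.14. Repressors and outputs averaged 0.31 with processed signals, 0.31 with the authors' table and 0.15 without Per2. Values near 0 changed sign. Per3 was at -0.02 with offset 0, -0.02 without background subtraction, -0.01 with loess span 0.1, -0.01 when centred by brightness, -0.04 to 0.04 with a replicate left out (-0.02 without replicate 1) and -0.15 under median centring (limma adjusted p 0.0326). Dbp was at -0.0010 with the median of probes, -0.05 without replicate 3 and -0.18 without replicate 4, Clock at -0.00027 without background subtraction and -0.0023 to 0.04 with a replicate left out, and Btrc at -0.09 with the median of probes, whose probes disagree. For the other changes the cause was not tested. Members closest to background were Per3, Cry1 and Npas2, with green signals of 54 to 112 over backgrounds of 20 to 33.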
